A study of Caenorhabditis elegans with 12 samples.

Results

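The genes described here are 9 genes that Caenorhabditis elegans uses in meiotic prophase: spo-11, rad-51, syp-1, syp-2, syp-3, him-3, htp-1, htp-3 and rec-8. They were taken by gene symbol for their known role in breaking, repairing and pairing meiotic chromosomes, out of 17138 genes with a probe set of their own on the array. All 9 passed the filter on low values, as did 8760 genes in all. Whole-worm RNA was measured on Affymetrix arrays in 3 groups of 4 arrays: strain BA1 with the temperature-sensitive allele fer-1(hc1), strain BA24 with the temperature-sensitive allele fer-1(hc24), and wild type strain N2. Every group, controls included, was synchronised as L1 larvae, raised at 25 °C and sorted as young adults, 1000 worms to a sample. fer-1 encodes a ferlin needed for the maturation of sperm, and the comparisons ask how transcript levels of the mutant worms differ from wild type and whether the alleles differ from each other. Each allele was represented by 1 strain, so an allele and the background of its strain cannot be told apart. The 4 arrays of a group were kept from 6 preparations for their correlation with each other, which makes the spread within a group smaller than among all preparations.

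In meiosis each chromosome must find its partner, be cut, and exchange strands with it before the partners separate. SPO-11, a relative of type VI topoisomerases, makes the double-strand breaks, and RAD-51 coats the resected ends and searches for the matching strand. The chromosome is folded along an axis that holds the cohesin subunit REC-8 and the HORMA-domain proteins HTP-3, HTP-1 and HIM-3, and the SYP proteins zip the axes of the partners together as the central region of the synaptonemal complex. In the hermaphrodite gonad these events follow each other along the germ line tube, from the zone where nuclei leave mitosis through pachytene, so that the transcripts come from germ cells and are deposited in part in oocytes. In whole worms, fewer cells of a type and less RNA per cell cannot be told apart.

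Values are log2 expression as deposited, and a log2 difference is also given as a fold where a gene passed. Differences were tested with limma across 11833 probe sets, and "rose" or "fell" is written where the Benjamini-Hochberg adjusted p was under 0.05. The median difference over all 8760 tested genes was 0.13 in hc1 and 0.12 in hc24 against wild type, and 0.07 in hc1 against hc24. This offset depends on how arrays are scaled, so differences are also given relative to it. Both mutants were compared with the same 4 wild type arrays, so the 2 comparisons are not independent. Correlations across probe sets were 0.9966 to 0.9991 within groups and 0.9767 to 0.9839 between either mutant and wild type. The fer-1 probe set lay at 1.46 to 1.48 in all 12 arrays, far under the filter of 4, and so could not check the genotypes.

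Of the 9 genes, 6 rose in hc1 (spo-11, rad-51, syp-1, syp-2, syp-3 and htp-1) and 6 in hc24 (spo-11, rad-51, syp-1, syp-2, syp-3 and rec-8), and 0 fell in either (limma). At an unadjusted p under 0.05 the limma counts were 7 higher and 0 lower in each mutant. Of all tested genes, 42.9% rose and 27% fell in hc1, and 38% rose and 22.1% fell in hc24. The median difference of the 9 was 0.30 in hc1, which is 0.16 above the median of all genes, and 0.31 in hc24, which is 0.19 above it. The break and strand exchange genes had the largest differences, the central region genes came next, and the axis genes him-3 and htp-3 did not pass in either mutant. The hc1 arrays lay wholly above wild type for 5 of the 9 genes, beside 41.3% of all tested genes. In hc24 this held for 5 of the 9, beside 35.9% of all tested genes.

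**Figure D1:**
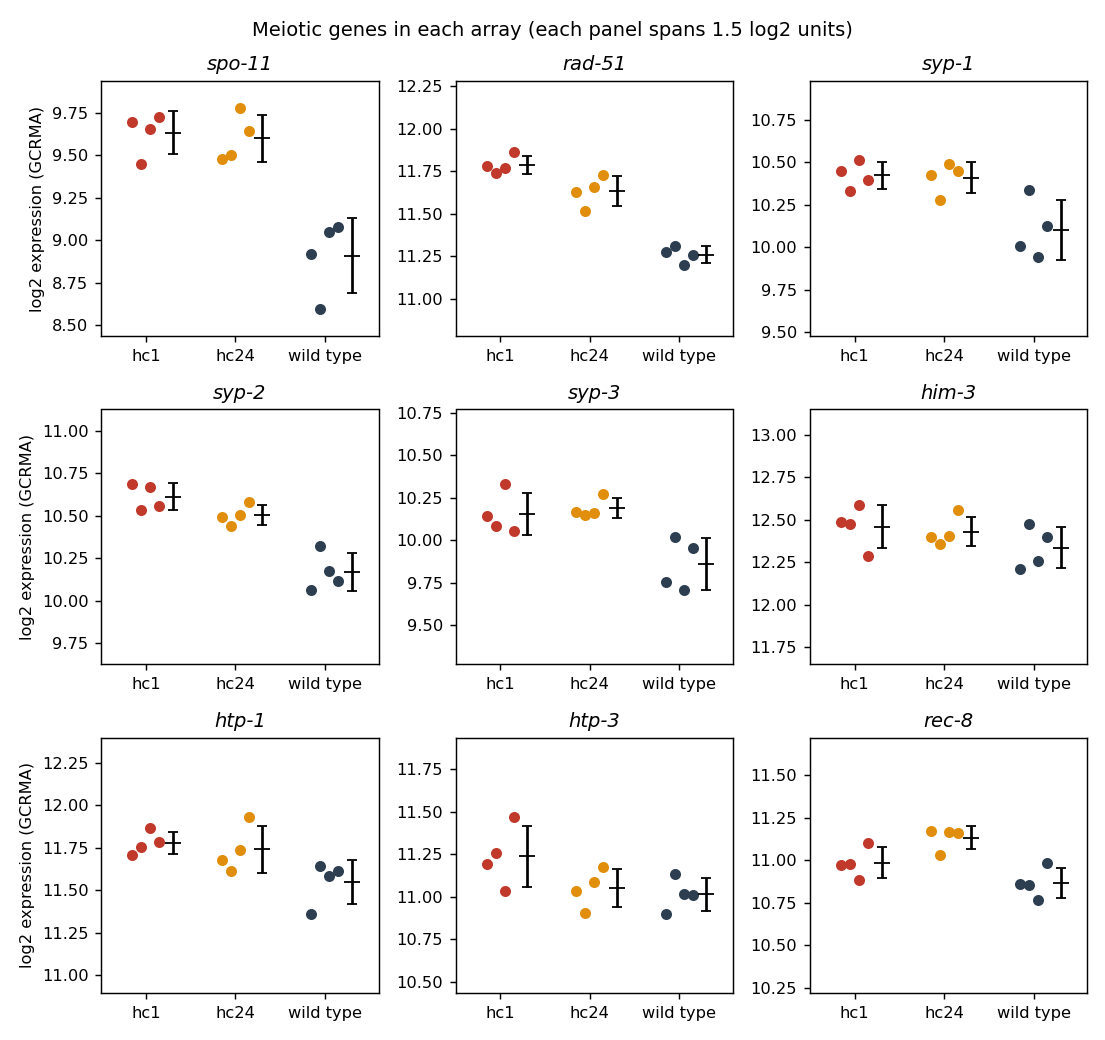
Log2 expression (GCRMA) of the 9 genes on each array, with 1 panel per gene and the 4 arrays of hc1, hc24 and wild type from left to right; the bars beside the points give mean and SD, and every panel spans the same number of log2 units. The wild type arrays of spo-11 (8.60 to 9.08) lie below all mutant arrays (9.45 to 9.78), whereas the groups of him-3 and htp-3 overlap.

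spo-11, which encodes the enzyme that makes the breaks, had log2 values of 9.70, 9.45, 9.66 and 9.73 in hc1 and 9.48, 9.50, 9.78 and 9.64 in hc24, against 8.92, 8.60, 9.05 and 9.08 in wild type. No mutant array came down to the wild type range, and wild type replicate 4 was the lowest of all. Means were 9.63 ± 0.13 in hc1, 9.60 ± 0.14 in hc24 and 8.91 ± 0.22 in wild type (SD, n = 4 each). spo-11 rose 1.65-fold in hc1 (log2 difference 0.72, SE 0.11, adjusted p = 0.000109). It rose 1.61-fold in hc24 (log2 difference 0.69, SE 0.11, adjusted p = 0.000216). The difference exceeded that of 89.1% of tested genes in hc1 and 90.6% in hc24. Relative to the median gene it was 0.59 in hc1 and 0.57 in hc24.

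rad-51, the recombinase gene, had 11.78, 11.74, 11.77 and 11.87 in hc1 and 11.63, 11.52, 11.66 and 11.73 in hc24, against 11.27, 11.31, 11.20 and 11.26 in wild type. The 3 groups formed a series without overlap, with hc1 highest and wild type lowest. rad-51 rose 1.44-fold in hc1 (log2 difference 0.53, SE 0.06, adjusted p = 1.06e-05) and 1.30-fold in hc24 (log2 difference 0.37, SE 0.06, adjusted p = 0.000247). Between the alleles the log2 difference was 0.15, with an interval of 0.02 to 0.29, and did not pass (adjusted p = 0.0771), although the arrays did not overlap, as was the case in this direction for 22% of all genes. That call changed with the setting: the adjusted p was 0.0181 with array weights, 0.0468 without the filter on low values and 0.0471 without hc24 replicate 5, and did not pass in the other 22 of 25 alternatives.

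All 3 genes of the central region rose in both mutants. syp-2 had 10.69, 10.53, 10.67 and 10.56 in hc1 and 10.49, 10.44, 10.51 and 10.58 in hc24, against 10.06, 10.32, 10.18 and 10.12 in wild type. Each mutant array was above each wild type array, and the rise was 1.36-fold in hc1 (adjusted p = 0.000131) and 1.26-fold in hc24 (adjusted p = 0.00141). syp-3 had 10.14, 10.08, 10.33 and 10.05 in hc1 and 10.17, 10.15, 10.16 and 10.27 in hc24, against 9.75, 10.02, 9.70 and 9.95 in wild type. Its mutant arrays were likewise above wild type, but the lowest hc1 array and the highest wild type array were close, at 10.05 and 10.02. syp-3 rose 1.23-fold in hc1 (adjusted p = 0.00871) and 1.26-fold in hc24 (adjusted p = 0.00571).

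syp-1, the founding member of the central region in worms, had 10.45, 10.33, 10.52 and 10.39 in hc1 and 10.42, 10.28, 10.49 and 10.45 in hc24, against 10.01, 10.34, 9.94 and 10.12 in wild type. The groups overlapped because wild type replicate 4 reached the lowest mutant arrays. syp-1 rose 1.25-fold in hc1 (log2 difference 0.32, SE 0.09, adjusted p = 0.00622) and 1.24-fold in hc24 (log2 difference 0.31, SE 0.09, adjusted p = 0.00942). The log2 differences of the 3 central region genes thus spanned 0.30 to 0.44 in hc1 and 0.31 to 0.34 in hc24.

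**Figure D2:**
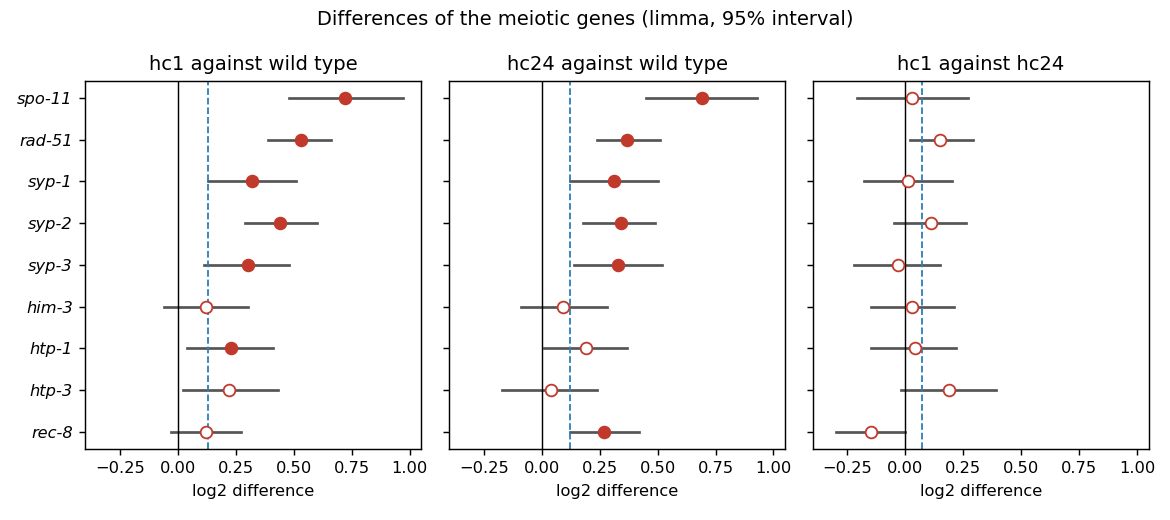
Log2 differences of the 9 genes with 95% limma intervals, for hc1 against wild type, hc24 against wild type and hc1 against hc24; filled points passed at an adjusted p under 0.05, and the dashed line is the median of all tested genes. The points run from spo-11 at 0.72 and 0.69 at the top down to him-3 and rec-8 at 0.12 in hc1 and htp-3 at 0.04 in hc24, and 0 points are filled in the comparison of the alleles.

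The HORMA-domain genes of the axis gave smaller differences. him-3 had 12.49, 12.47, 12.59 and 12.28 in hc1 and 12.40, 12.36, 12.41 and 12.56 in hc24, against 12.21, 12.48, 12.26 and 12.40 in wild type. The ranges overlapped in part, with 2 of the 4 hc1 arrays above every wild type array, and the log2 difference was 0.12 in hc1 (interval -0.06 to 0.30, adjusted p = 0.209) and 0.09 in hc24 (interval -0.09 to 0.28, adjusted p = 0.346). him-3 was the only one of the 9 with a further probe set, and that one gave 0.01 in hc1 (adjusted p = 0.917) and -0.02 in hc24 (adjusted p = 0.853).

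htp-3, whose product recruits the other HORMA proteins to the axis, had 11.19, 11.26, 11.03 and 11.47 in hc1 and 11.03, 10.90, 11.09 and 11.17 in hc24, against 10.90, 11.13, 11.01 and 11.01 in wild type. Its hc1 arrays were the most scattered of the 9 genes (SD 0.18, n = 4). The log2 difference was 0.22 in hc1 (interval 0.02 to 0.43, adjusted p = 0.0528) and 0.04 in hc24 (interval -0.17 to 0.24, adjusted p = 0.766). The hc1 value lies close to the threshold, and it passed at 0.29 without hc1 replicate 5 (adjusted p = 0.0158) and at 0.26 without wild type replicate 4 (adjusted p = 0.037). Over all 25 alternatives the hc1 difference ran from 0.00 to 0.48 and passed in 5, with adjusted p up to 0.985.

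htp-1, which acts in pairing and in protecting cohesion, had 11.71, 11.76, 11.87 and 11.78 in hc1 and 11.68, 11.61, 11.74 and 11.93 in hc24, against 11.36, 11.64, 11.58 and 11.62 in wild type. All hc1 arrays were above wild type, while hc24 replicate 2 fell within the wild type range. htp-1 rose 1.17-fold in hc1 (log2 difference 0.23, SE 0.08, adjusted p = 0.0297). That call was lost without wild type replicate 3 (adjusted p = 0.0918), without hc1 replicate 5 (adjusted p = 0.0775) and without hc1 replicate 6 (adjusted p = 0.0527). Scaling lowered it further, to 0.01 with cyclic loess (adjusted p = 0.939) and 0.07 with quantile normalization (adjusted p = 0.473). In hc24 the difference was 0.19 (interval 0.01 to 0.37, adjusted p = 0.0703), which passed without hc24 replicate 2 (adjusted p = 0.0458). The alleles did not differ detectably for htp-1 (0.04, interval -0.15 to 0.22, adjusted p = 0.775). Its near copy htp-2, which lies on the same chromosome with 169 protein-coding genes between them, rose 1.23-fold in hc1 (adjusted p = 0.00263) and 1.18-fold in hc24 (adjusted p = 0.0105). Probes for such similar genes may share signal, and whether they did was not tested. Within each array htp-1 lay 0.91 to 1.13 above htp-2 in hc1 and 0.91 to 1.28 in hc24, against 0.99 to 1.29 in wild type, so the pair kept nearly the same spacing.

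rec-8, the meiotic kleisin that closes the cohesin ring, showed its larger difference in hc24. It had 10.97, 10.98, 10.88 and 11.10 in hc1 and 11.17, 11.03, 11.16 and 11.16 in hc24, against 10.86, 10.85, 10.76 and 10.98 in wild type. The hc24 arrays were all above wild type and the hc1 arrays were not. rec-8 rose 1.20-fold in hc24 (log2 difference 0.27, SE 0.07, adjusted p = 0.00539), and in hc1 the difference was 0.12 (interval -0.03 to 0.27, adjusted p = 0.142). Between the alleles it was -0.15 and did not pass (adjusted p = 0.127). That difference passed with cyclic loess (-0.21, adjusted p = 0.0312) and with centring on the tested probe sets (-0.20, adjusted p = 0.0374), a setting chosen after the data were seen.

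Across the alleles 0 of the 9 genes passed in hc1 against hc24 with limma, where 31.7% of tested genes did, and 1 of the 9, rad-51, had an unadjusted p under 0.05. The median of the 9 differences was 0.03. For spo-11 the interval of the allele difference was -0.21 to 0.27, and for syp-2 it was -0.05 to 0.26, which leaves room for differences of about the size seen for rad-51. The mean log2 level of the 9 genes on an array was 10.96 to 11.03 in hc1 and 10.87 to 11.06 in hc24, against 10.59 to 10.74 in wild type.

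Within groups, single arrays were extreme for several of the 9 genes. In hc24, replicate 2 was lowest for 8 of the 9 genes, all but spo-11, and replicate 5 was highest for 6. In wild type, replicate 4 was highest for 7 of the 9 and lowest for spo-11. In hc1, replicate 2 was lowest for spo-11, rad-51, syp-1 and syp-2. That array stood apart in another respect: the mean log2 level of 23 major sperm protein genes was 8.52 there, whereas hc1 replicates 1, 5 and 6 gave 4.69 to 5.50. It was 8.72 to 8.99 in hc24, against 5.07 to 6.13 in wild type. Without hc1 replicate 2, 6 of the 9 genes rose in hc1, as with it.

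Subtracting the mean of the other 8 genes on the same array removes any scaling that is common to them. On this measure spo-11 was at -1.70 to -1.46 in hc1 and -1.65 to -1.37 in hc24, against -2.42 to -1.78 in wild type, so that its rise exceeded that of its companions in every mutant array. rad-51 was at 0.83 to 0.95 in hc1 and 0.73 to 0.77 in hc24, against 0.60 to 0.76 in wild type, and was apart from wild type in hc1 alone. him-3 went the other way, at 1.41 to 1.74 in hc1 and 1.58 to 1.69 in hc24, against 1.82 to 1.95 in wild type. htp-3 was at 0.04 to 0.13 in hc24, against 0.32 to 0.44 in wild type, whereas its hc1 arrays overlapped wild type. rec-8 was at -0.17 to 0.09 in hc1 and 0.12 to 0.26 in hc24, against 0.12 to 0.30 in wild type, so its hc1 arrays lay below wild type and hc24 did not. For syp-1, syp-2, syp-3 and htp-1 the groups overlapped, which does not show that they changed as much as the others. In hc1 the mean on this measure differed from wild type by 0.12 for syp-2 and by -0.12 for htp-1. These spacings show unequal change among the 9 genes and not that one of them stayed constant.

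**Figure D3:**
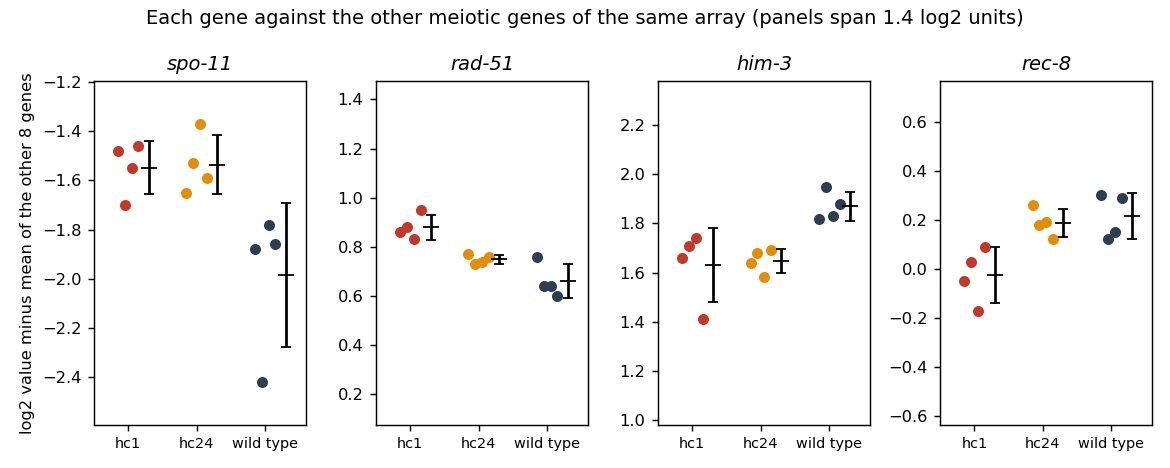
Log2 value of spo-11, rad-51, him-3 and rec-8 minus the mean of the other 8 genes on the same array, for the 4 arrays of hc1, hc24 and wild type from left to right, with mean and SD beside the points. spo-11 is higher and him-3 lower in all mutant arrays than in all wild type arrays.

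The scaling of the arrays decides how many of the smaller differences pass. spo-11, rad-51 and syp-2 rose in both mutants in all 25 alternatives. With cyclic loess normalization those 3 genes alone passed in each mutant, and syp-1 (0.10, adjusted p = 0.296) and syp-3 (0.08, adjusted p = 0.406) did not in hc1. Median centring gave 9 rises of 9 in hc1 and 9 of 9 in hc24. The signs of the smallest differences turned with cyclic loess: him-3 came to -0.09 in hc1 and -0.06 in hc24, htp-3 to -0.13 in hc24 and rec-8 to -0.10 in hc1. With quantile normalization htp-3 came to -0.07 in hc24 and rec-8 to -0.03 in hc1, and none of these values passed. Relative to the median of all genes under the same scaling, spo-11 kept 0.55 to 0.59 in hc1 and 0.55 to 0.57 in hc24, rad-51 kept 0.29 to 0.39 and 0.16 to 0.25, and syp-2 kept 0.21 to 0.31 and 0.13 to 0.21, over the deposited, median-centred, quantile and cyclic loess values.

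**Figure D4:**
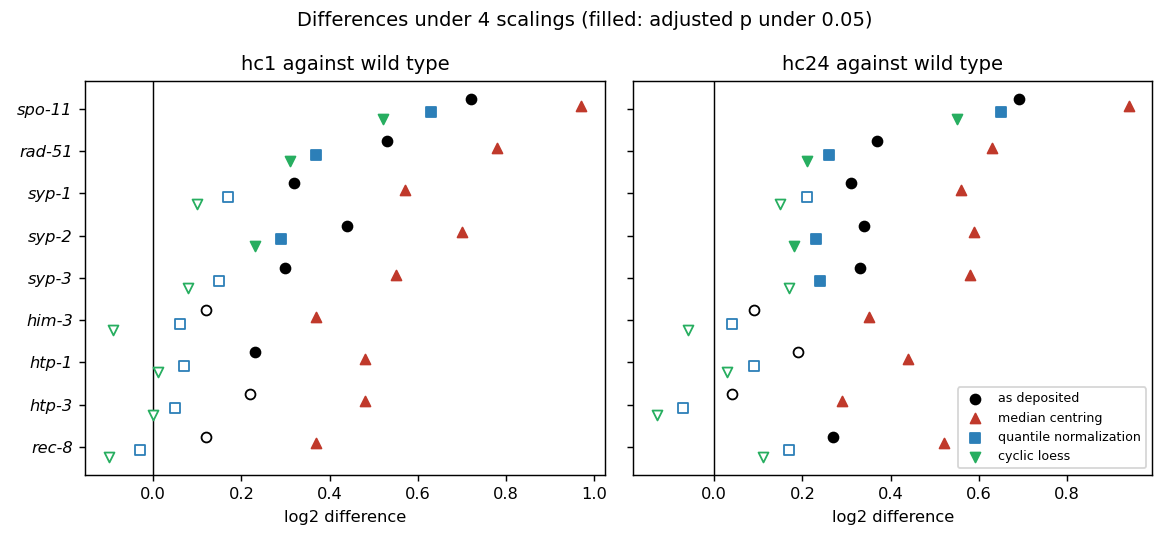
Log2 differences of the 9 genes against wild type in hc1 and in hc24 under the deposited scaling, median centring, quantile normalization and cyclic loess; filled symbols passed at an adjusted p under 0.05. Median centring shifts all genes to the right and cyclic loess to the left, and spo-11, rad-51 and syp-2 stay filled throughout.

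The wider list of 79 meiosis genes, the 9 included, had 74 genes on the array and 72 that passed the filter. Of these 72, 59 rose (81.9%) and 1 fell in hc1 (median 0.38), and 40 rose (55.6%) and 1 fell in hc24 (median 0.24). The shares over all tested genes were 42.9% rising and 27% falling in hc1, and 38% and 22.1% in hc24. In hc1 against hc24, 13 were higher and 1 was lower, beside 18.8% and 12.9% of all genes. By role, 9 of 11 tested break genes rose in hc1 and 9 in hc24 (81.8% in each). dsb-1, which promotes break formation, rose by 0.59 and 0.46 log2, and him-5, needed for breaks on the X chromosome, rose by 0.51 and 0.48, so spo-11 at 0.72 and 0.69 had the largest difference of its role in each mutant. Of 13 strand exchange genes 10 rose in hc1 (76.9%) and 7 in hc24 (53.8%). Among those that rose in hc1, atm-1 lay at 3.34 to 3.90 in wild type and passed the filter of 4 only through mutant arrays. The subunits of the single-strand binding protein RPA, rpa-1 and rpa-2, rose by 0.59 and 0.75 in hc1 and by 0.37 and 0.42 in hc24, and both work in replication as well as in recombination.

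Of 14 crossover genes 13 rose in hc1, which is 92.9% beside 42.9% of all tested genes. In hc24 5 of 14 rose, and this share of 35.7% was near the 38% of all tested genes. zhp-3, a RING-domain protein of crossover sites, rose by 0.49 in hc1 and 0.22 in hc24, and its relative zhp-2 by 0.56 and 0.57. All 6 central region genes rose in both mutants: beside the 3 described above, syp-4 rose by 0.32 and 0.25, syp-5 by 0.50 and 0.43 and syp-6 by 0.63 and 0.40. Of 15 axis and cohesin genes 9 rose in hc1 (60%), with the lowest median of the 6 roles (0.26). In hc24 5 of 15 rose, a share of 33.3% that was under the 38% of all tested genes. In that group the general kleisin scc-1 rose by 0.49 and 0.46 and the cohesin release factor wapl-1 by 0.59 and 0.47. coh-1, another kleisin, fell by 0.23 in hc24 (adjusted p = 0.0327), a call that median centring turned to 0.02 and the mean over its probe sets to 0.06.

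Pairing and checkpoint genes rose in 12 of 13 cases in hc1 (92.3%) and in 8 of 13 in hc24 (61.5%), beside 42.9% and 38% of all tested genes. prom-1, which acts at meiotic entry, had the largest difference of the list in hc1 (0.84, adjusted p = 6.42e-06) and rose by 0.49 in hc24. zim-2, a zinc finger protein of a pairing center, rose by 0.61 and 0.39, and hal-2, which restrains SYP proteins until homologs are aligned, by 0.60 and 0.62. The member of this role that fell in hc1 was cra-1, a gene required for synapsis, at -0.39 (adjusted p = 0.0284). Its hc1 arrays ran from 10.55 to 11.27 and overlapped wild type at 10.96 to 11.42.

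**Figure D5:**
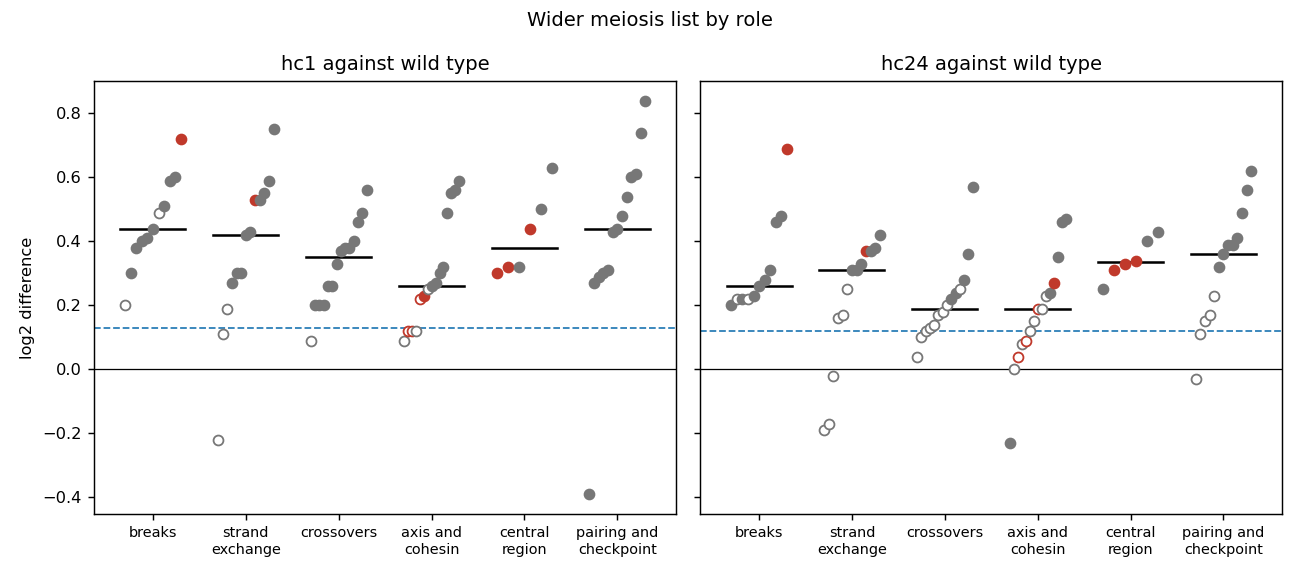
Log2 differences against wild type in hc1 and in hc24 for the 72 tested genes of the wider meiosis list, grouped by role; red points are the 9 genes, filled points passed, black bars are medians and the dashed line is the median of all tested genes. spo-11 is at the top of the break genes in both panels, and the 6 central region genes are filled in both.

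Replication, oocyte and most early embryonic marker genes also rose in the mutants, and their part in the differences of the 9 genes was not tested. General germ line genes stood near all genes: of 16, 5 rose and glh-1, a germ granule helicase gene, fell in hc1, and 7 rose in hc24. These rises are 31.2% in hc1 and 43.8% in hc24, beside 42.9% and 38% of all tested genes, and the medians were 0.14 and 0.17, beside 0.13 and 0.12. The list had a log2 summed level of 16.11 to 16.13 in hc1 and 16.10 to 16.18 in hc24, against 15.87 to 16.07 in wild type. Of 12 oocyte genes 11 rose in hc1 and 8 in hc24 (medians 0.44 and 0.23), summed to 17.32 to 17.40 and 17.14 to 17.26, against 16.85 to 17.09 in wild type. All 11 replication and mitosis genes rose in both (medians 0.74 and 0.48), summed to 17.09 to 17.20 in hc1 and 16.86 to 16.90 in hc24, against 16.30 to 16.50 in wild type. The mean of the 9 meiotic genes fell behind that of these 11 genes on the same array: the difference was -2.21 to -2.12 in hc1 and -2.03 to -1.85 in hc24, against -1.79 to -1.67 in wild type. Against the oocyte genes the spacing overlapped between groups, and against the general germ line genes it was -0.52 to -0.38 in hc1, above -0.65 to -0.59 in wild type, and overlapped in hc24 at -0.65 to -0.41.

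Of 7 tested early embryonic genes 6 rose in each mutant (85.7%), beside 42.9% of all tested genes in hc1 and 38% in hc24. The remaining gene, end-1, an endoderm transcription factor gene, fell by 0.48 in hc1 (adjusted p = 0.00104) and by 0.53 in hc24 (adjusted p = 0.000637). pes-10 (2.52 to 2.67 in wild type), tbx-37 (3.13 to 3.43) and tbx-43 (3.21 to 4.10) passed the filter of 4 only through mutant arrays. The share of 85.7% thus depends in part on the filter. The list was far above wild type as a sum (log2 summed level 13.00 to 13.17 in hc1 and 12.41 to 12.53 in hc24, against 9.53 to 9.91 in wild type), with 4 of the 11 on the array under log2 4 in every array. Of 22 tested major sperm protein genes 0 passed in hc1 (limma, median 0.17, and 0 at an unadjusted p under 0.05) and 22 rose in hc24 (median 3.57). Their mean level spread from 4.69 to 8.52 over the hc1 arrays, with replicate 2 highest, so the lack of calls there does not show equal levels. Probes for such similar genes may share signal, which was not tested, so the 22 are not separate observations. msp-142, msp-45, msp-49, msp-50 and msp-74 lay under log2 4 in every wild type array and passed the filter only with hc24 arrays. That all 22 rose in hc24 thus depends in part on the filter. Of 11 other sperm genes 10 were on the array and 7 of those lay under log2 4 in every array, with summed levels of 7.27 to 7.60 in hc1 and 7.38 to 7.62 in hc24, against 7.0 to 7.17 in wild type. Counts of falls in somatic tissues stand beside the 27% of all tested genes that fell in hc1 and the 22.1% in hc24. In muscle, 8 of 8 genes fell in hc1 (summed level 15.03 to 15.24, against 15.80 to 16.01 in wild type). In hc24 4 of them fell and 1 rose (15.76 to 15.96). Intestinal genes fell in 6 of 10 cases in hc1 and in 5 of 10 in hc24 (16.49 to 16.60 and 16.47 to 16.63, against 16.64 to 16.81 in wild type). Of 7 epidermal genes 5 fell in hc1 (15.52 to 15.89, against 16.20 to 16.38 in wild type). In hc24 3 of them fell and col-19, an adult cuticle collagen gene, rose by 0.98 (16.23 to 16.39). The largest differences of the list were falls, of wrt-1 (-4.26 in hc1 and -6.02 in hc24) and dpy-7 (-4.04 and -4.36). The sum hardly shows them, because brighter genes such as sqt-3 (mean 15.91 in wild type, against 10.27 for wrt-1) make up most of it. Of 6 neuronal genes 4 fell and 1 rose in hc1 and 5 fell in hc24 (12.98 to 13.15 and 12.77 to 12.94, against 13.11 to 13.29 in wild type). Somatic gonad genes went the other way as a sum, at 12.39 to 12.57 in hc1 and 12.47 to 12.59 in hc24, against 12.18 to 12.26 in wild type. That sum was mostly inx-8, the brightest of them, with means of 12.29 in hc1, 12.35 in hc24 and 11.99 in wild type. Of 5, 2 rose (40%) and 1 fell in each mutant, and rises over all tested genes were 42.9% in hc1 and 38% in hc24. Besides inx-8, lag-2, the Notch ligand gene of the distal tip cell, rose by 3.37 in hc1 and 2.48 in hc24. Its wild type arrays lay at 2.70 to 3.26, so lag-2 passed the filter of 4 only through the mutants. The gene that fell was lim-7 (-0.52 and -0.37). Somatic genes thus did not share 1 direction. A smaller share of somatic RNA in a sample and a larger amount of meiotic transcript per worm cannot be told apart in these values.

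Of the 9 genes, 5 lie on chromosome IV (spo-11, rad-51, him-3, htp-1 and rec-8), 2 on I (htp-3 and syp-3), 2 on V (syp-1 and syp-2) and 0 on X. Chromosome IV held 16.4% of tested genes and X held 13.8%. The closest neighbours among the 9, spo-11 and rad-51, have 196 protein-coding genes between them, so that none are adjacent. In the wider list 1 of 72 tested genes, coh-1, was X-linked. Tested X-linked genes had a median difference of -0.14 in hc1 and -0.07 in hc24, and those of chromosome IV 0.11 and 0.12.

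Of 8751 other tested genes, those whose centred profile over the 12 arrays lay nearest to the mean profile of the 9 were tbb-1, a beta-tubulin gene, rfc-3, a subunit of the clamp loader, snr-7, an Sm protein gene, spr-2 and the histone H3 gene his-74. Their root mean square distances were 0.0331 to 0.0423 log2. The 9 genes themselves lay at 0.0708 (syp-1) to 0.237 (spo-11) from that mean, so spo-11 was the one least like the average profile. tbb-1 rose by 0.32 in hc1 and 0.23 in hc24, and rfc-3 by 0.35 and 0.32. These genes were picked out of 8751 for that match, so their small distances and their rises follow from the choice.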

How the data were processed

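Each of 12 samples was hybridised to 1 array from 100 ng of total RNA, per the labels' protocols, and sample titles describe biological replicates. The authors deposited 1 log2 value per probe set and array, made with Affymetrix Expression Console and GCRMA per the submitters' processing notes, in versions the notes leave out. GCRMA corrects background from probe sequence, normalizes across arrays and summarises probes. Of 22548 probe sets that were no array controls, the annotation table of the platform named a single gene for 20810, more than 1 for 843, and no gene for 895. Names were checked by Entrez ID against RefSeq genes of WBcel235, which held 20702 of them, and 0 changed. Chromosomes and gene order are those of WBcel235; the array annotation's own build is unnamed, so no coordinates are printed.

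Probe sets with log2 of at least 4 in at least 4 arrays were tested (11833) in limma 3.58.1 (R 4.3.3), with 1 mean per group over all 12 arrays, no covariates and moderated variances. P-values are two-sided and adjusted within each comparison over all tested probe sets. A gene was represented by its brightest probe set with 1 gene. For 5 of the 9 genes its name ends in _s_at, which Affymetrix gives to sets that match several transcripts. Array signal gives no depth, and the number of arrays limits the precision. The fit was tested on simulated data. Older names in the wider list (pqn-85, coh-2, rad-54) were read as scc-2, scc-1 and rad-54.L. Named genes were the 9, htp-2, up to 2 rising and 2 falling genes per role and mutant with the smallest adjusted p, and the 5 nearest profiles. Outside this rule, syp-4, glh-1, end-1, col-19, wrt-1, dpy-7, sqt-3, inx-8, lim-7 and lag-2 are named after their values were seen. So are atm-1, pes-10, tbx-37, tbx-43, msp-142, msp-45, msp-49, msp-50 and msp-74. The members and lists were chosen with earlier results of these data known.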

Additional observations from a re-analysis of the deposited data

Results flagged for a closer look

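A single array stood far from the other 3 of its group in 4 of 96 groups examined for 32 named genes, and chance alone gives about 5%. These were rec-8 in hc24 replicate 2 (11.03, the lowest), syp-3 in hc24 replicate 5 (10.27, the highest), rpa-2 in hc24 replicate 5 (12.50, the lowest) and him-5 in wild type replicate 4 (9.16, the highest). The alleles differed in 8 named genes of the wider list and in 0 of the 9 (limma, adjusted p under 0.05, hc1 minus hc24 in log2). In the wider list as a whole 18.1% were higher in hc1 and 1.39% lower, beside 18.8% and 12.9% of all tested genes. The named genes had been picked by their adjusted p against wild type on these same arrays. Higher in hc1 were prom-1 (0.35), rpa-2 (0.33), coh-1 (0.31), zhp-3 (0.27), rpa-1 (0.21), zim-2 (0.21) and him-17 (0.18), and cra-1 was lower (-0.55). rpa-2 passed in 25 of 25 alternatives, prom-1 in 24, cra-1, coh-1 and zhp-3 in 23, rpa-1 in 21, zim-2 in 14 and him-17 in 10.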

How the results depend on the processing

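Of 351 values of the 9 genes under alternatives other than leaving out an array, 322 kept their direction and side of the threshold, 15 lost a call, 14 gained one and 0 reversed a call. The count of the 9 that rose in hc1, 6 as reported, was 3 with cyclic loess, 3 with quantile normalization and 3 with centring on the tested probe sets, a setting chosen after the data were seen. In hc24 it was 3 with cyclic loess. In hc1 against hc24 it was 1 higher without the filter and with array weights, and 1 lower with cyclic loess and with that centring. Leaving out 1 array gave 5 to 7 rises in hc1, 6 to 7 in hc24 and 0 to 1 between the alleles.

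For the wider list, rises in hc1 (59) came to 31 with cyclic loess, and rises in hc24 (40) to 66 with median centring and 21 with cyclic loess. Falls in hc1 (1) came to 0 with median centring, with only the 2 groups compared, with the mean of probe sets and at an adjusted p under 0.01, and to 2 with cyclic loess, quantile normalization and centring on tested probe sets. Falls in hc24 (1) came to 0 with median centring, the mean of probe sets and the 0.01 threshold, to 4 with cyclic loess, to 3 with quantile normalization, and to 2 with array weights and centring on tested probe sets. Genes higher in hc1 than hc24 (13) came to 6 with cyclic loess, quantile normalization and centring on tested probe sets and to 2 at 0.01, and those lower (1) to 2 with cyclic loess and that centring and to 0 at 0.01. Leaving out 1 array gave 49 to 61 rises and 0 to 2 falls in hc1, 34 to 45 and 0 to 2 in hc24, and 7 to 15 higher and 1 to 1 lower between the alleles, with 7 higher without hc1 replicate 1. The fall of coh-1 in hc24 reversed to 0.02 with median centring and 0.06 with the mean of probe sets. Median centring takes out the array medians, which averaged 4.35 in hc1, 4.35 in hc24 and 4.60 in wild type. By construction it raised the differences of all genes against wild type by the same amount. The cause of the other changes was not tested. Of all calls, the share that was higher ran from 44.0% with cyclic loess to 76.5% with median centring in hc1 (62.5% as deposited), and from 45.5% to 80.4% in hc24 (63.5%).

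Replicate numbers did not pair the samples: deviations of same-numbered arrays correlated at -0.0748 to 0.0825 over 7 pairs, and others at -0.244 to 0.231. With the number as a replicate block, falls in the wider list came to 0 in each mutant, and between the alleles 4 genes were higher and 0 lower. Among the 9 genes the block changed 1 call: htp-1 passed in hc24 at 0.29 (adjusted p = 0.0247), against 0.19 (adjusted p = 0.0703) without it. The block also uses up residual degrees of freedom. Number 4 occurred in wild type alone, so that array has no weight in the comparisons with the block. What the changed calls owe to either was not tested. Signals near background, such as fer-1, cannot show a difference on these arrays.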
